A study of Mus musculus with 15 samples.

Results

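The 10 genes described here mark the activation of pancreatic stellate cells and the TGF-beta ligands that act on them. They are Acta2, Tagln, Des, Pdgfrb, Fap, Postn, Tnc, Tgfb1, Tgfb2 and Tgfb3, chosen by name out of the 49585 genes listed in the deposited count tables, and all 10 are listed in each of the 3 tables. RNA-Seq counts of 15 pancreas libraries were analysed, each made from the pooled pancreata of 3 C57BL/6 mice. The study asked how HPK1 (gene Map4k1), a kinase that limits Ras signaling, and its kinase-dead mutant M46 act in acinar cells during pancreatitis and tumor formation.

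In the first experiment, 3 MC libraries (genotype label HPK1-M46 transgenic, age 2 months) were compared with 3 controls of the same age (label B control, where B is the Bac-cre line). In the second, 3 libraries labelled HC (HPK1/B, 4 months) were compared with 2 controls of the same age (labelled WT). The series design gives cerulein treatment for these groups. Cerulein, a cholecystokinin analog, induces pancreatitis by overstimulating acinar cells. In the third, 2 KMC libraries (M46/Ras/B, 9 months) were compared with 2 KC libraries (Ras/B, 15 months), so that KMC carry M46 beside the alleles that both groups share. The paper describes the RNA-Seq samples of KMC and KC as pancreatic ductal adenocarcinoma (PDAC), and the labels do not state cerulein for them. The Cre of the Bac-cre line is tamoxifen-inducible and driven by the acinar elastase I promoter, so the transgenes are switched on in acinar cells. By contrast, the genes described here are mostly products of stromal cells.

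In a healthy pancreas, stellate cells are quiescent and store vitamin A. After injury they become contractile, matrix-producing myofibroblasts, and this change underlies the fibrosis of chronic pancreatitis and the dense stroma of pancreatic cancer. PDGF receptor signaling drives their growth. TGF-beta drives their production of matrix: the ligands are secreted in a latent complex, are released by integrins and proteases, and signal through a pair of receptor kinases to SMAD transcription factors.

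Postn and Tnc differed most between groups, and Tgfb1 is the ligand most often studied in stellate cells, so the 250 bases before the start of these 3 genes are shown for reference (RefSeq, GRCm38.p6, 5′ to 3′ on the gene's strand). Capitals mark the letters TATAAA, at which the basal transcription machinery can bind, and GGGCGG, a GC box, read on both strands.

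Postn (chr3:54360857-54361106, plus strand): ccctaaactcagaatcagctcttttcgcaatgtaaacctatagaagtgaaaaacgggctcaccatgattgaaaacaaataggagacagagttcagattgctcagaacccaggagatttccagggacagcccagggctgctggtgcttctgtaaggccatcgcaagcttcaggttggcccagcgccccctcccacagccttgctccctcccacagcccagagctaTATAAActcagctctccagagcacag
Tnc (chr4:64047016-64047265, minus strand): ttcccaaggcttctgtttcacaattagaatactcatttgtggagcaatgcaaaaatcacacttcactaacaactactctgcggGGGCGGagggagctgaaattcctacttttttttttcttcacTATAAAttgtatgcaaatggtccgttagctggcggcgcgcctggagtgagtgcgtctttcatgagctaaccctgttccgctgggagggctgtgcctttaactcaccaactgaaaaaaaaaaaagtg
Tgfb1 (chr7:25686752-25687001, plus strand): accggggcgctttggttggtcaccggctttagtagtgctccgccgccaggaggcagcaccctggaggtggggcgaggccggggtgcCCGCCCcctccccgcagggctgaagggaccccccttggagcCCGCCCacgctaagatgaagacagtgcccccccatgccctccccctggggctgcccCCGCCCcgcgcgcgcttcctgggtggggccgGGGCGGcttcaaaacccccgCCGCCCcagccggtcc

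The Postn window holds 1 TATAAA, which begins 26 bases before the start, and no GGGCGG. In Tnc, TATAAA begins 126 bases before the start and GGGCGG 167 bases before it, and the Tgfb1 window holds 5 copies of GGGCGG and no TATAAA. None of these windows holds CAGAC, the letters that SMAD proteins bind, or TGANTCA, the letters of AP-1. Nor do they hold a CArG box, the site of serum response factor, read strictly as CC, 6 letters A or T, then GG. These matches overlap no other match. Of the 32851 mouse promoter windows of the same length, 12.4% hold TATAAA, 32.7% GGGCGG, 42.2% CAGAC, 6.75% TGANTCA and 1.47% a CArG box. In all, 6 of the 10 genes had an entry. Acta2, Des and Tgfb2 were the others, and Tagln, Pdgfrb, Fap and Tgfb3 had none. The Acta2 window holds 1 CAGAC, that of Tgfb2 holds 2 copies of CAGAC and 1 TATAAA, and that of Des holds 2 copies of GGGCGG. An alternative start of Postn, and another of Tnc, had 1 CAGAC each. The matches are letters in a window and were not tested as sites.

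Totals ranged from 29766575 to 38745907 counts per library. A count of 0 allows up to 3 counts, which by total counts equal 0.0774 to 0.101 CPM (counts scaled to the library size) in these libraries. The levels that follow use library sizes scaled by TMM, from 14688660 in KC 1 to 83939800 in KMC 2. On that scale the floor differs between libraries, and in KC 1 a gene with 2 counts is at 0.136 CPM. Map4k1 was at 6.79 to 8.32 CPM in MC and 2.34 to 4.14 CPM in control, and at 5.92 and 11.4 CPM in KMC against 0.545 and 1.55 CPM in KC. In the libraries labelled HC it went against the label, at 5.05 to 7.93 CPM against 11.5 and 15.4 CPM in control. Ptprc, the pan-leukocyte gene, followed the same order in each comparison, and Map4k1 is also a gene of blood cells, so the part of leukocytes in it was not tested. The libraries are named below as they are labelled. In the HC experiment, a list of 35 acinar genes took 6.33 to 9.9% of the counts, against 42.5 to 62% in the MC experiment, and Gkn1, a gene of stomach surface cells, was at 2336 to 2888 CPM in the libraries labelled HC and 322 and 680 CPM in control. Ddx3y, on the Y chromosome, was at 48.4 CPM in library HC 3, where Xist was at 0.761 CPM, whereas the other 4 libraries of that experiment had 0 counts of Ddx3y. Both KMC libraries had 0 counts of Ddx3y and at least 306 CPM of Xist, and both KC libraries had 10.7 and 17.3 CPM of Ddx3y, so in the third experiment sex and age follow genotype and the effects of these 3 cannot be told apart.

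Differences were tested with edgeR's quasi-likelihood test, and a called gene had an adjusted p (Benjamini-Hochberg) up to 0.05 together with a log2 fold change of 1 or more in either direction. By this test 0 of the 9 members tested were called in MC against control (0.0% of the 13902 genes tested), 0 of 10 in the libraries labelled HC against control (0.565% of 18407 genes), and 0 of 9 in KMC against KC (0.0191% of 15733 genes). At an unadjusted p under 0.05, 2 of 9 were higher in MC (9.2% of all genes tested), 6 of 10 were lower in the libraries labelled HC (7.47% of all genes), and 8 of 9 were higher in KMC (16.1%). Single libraries set these counts: the 2 members in MC became 7 without control 2 and 0 without control 1 or control 3, with 1 without MC 1 or MC 3. For the libraries labelled HC the count at that p was 1 in place of 6 without control 1, and 3 without HC 2 or HC 3. For KMC it was 4 in place of 8 without KMC 2 or KC 1, and 5 without KC 2. DESeq2 called 0 members in MC (3.11% of all genes higher and 0.151% lower), 2 members lower in the libraries labelled HC (1.09% of all genes) and 7 members higher in KMC (9.25%). Before any threshold, all genes tested split into 46.9% higher and 53.1% lower in MC, into 49.8% and 50.2% in the libraries labelled HC, and 51.3% and 48.7% in KMC. The median log2 fold change of the members tested was 0.47 in MC, -0.48 in the libraries labelled HC and 1.94 in KMC, whereas that of all genes was -0.02, -0.00 and 0.03. Levels below are CPM scaled by TMM, as above, and folds are log2 with their standard error. In whole tissue, fewer cells of a type and less RNA per cell cannot be told apart.

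The 2 matricellular genes, whose secreted products sit in the matrix and act on cells rather than bear load, gave the largest differences of the members in each comparison. Postn (chr3:54361109-54391037) encodes periostin, which stellate cells secrete once activated. It was at 40.7, 44.8 and 83.1 CPM in MC libraries 1 to 3 and at 26.4, 43.5 and 15.5 CPM in their controls. Control 2 lay above MC 1, so the groups overlapped, and the log2 fold change was 0.98 ± 0.41 (edgeR adjusted p = 0.327). Libraries labelled HC had Postn at 268, 172 and 344 CPM, and in both controls at 555 and 495 CPM. Here every library labelled HC was below both controls, with a log2 fold change of -1.01 ± 0.28 (edgeR adjusted p = 0.172, DESeq2 adjusted p = 0.0112). Its level in KMC was 87.6 and 291 CPM and in KC at 5.11 and 18.4 CPM. Both KMC libraries were higher, and the log2 fold change was 4.00 ± 0.84 (edgeR adjusted p = 0.0796, DESeq2 adjusted p = 1.97e-07).

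Tnc (chr4:63959785-64047015) encodes tenascin C, a glycoprotein that is scarce in resting adult tissue and appears in wounds and tumor stroma. Its level varied widely within groups. In MC it was at 1.62, 7.33 and 20.0 CPM, and in control at 2.71, 11.8 and 0.988 CPM. The ranges overlapped almost fully, the log2 fold change was 0.89 ± 1.0 (edgeR adjusted p = 0.666), and without MC library 3 it was -0.21. Tnc was at 64.1, 52.7 and 109 CPM in the libraries labelled HC, below both controls at 229 and 129 CPM. The log2 fold change was -1.25 ± 0.36 (edgeR adjusted p = 0.183, DESeq2 adjusted p = 0.0136). In KMC the 2 libraries stood far apart, at 14.1 and 177 CPM, and both were above KC at 1.02 and 2.01 CPM. These rest on 575 and 14822 counts in KMC and on 15 and 52 counts in KC. The log2 fold change was 5.94 ± 1.19 (edgeR adjusted p = 0.0796, DESeq2 adjusted p = 1.20e-10). Library KMC 2 sets much of its size: without it the log2 fold change of Tnc was 3.20 (adjusted p = 0.0189) and that of Postn 2.89 (adjusted p = 0.0487), and without KMC 1 they were 6.81 and 4.6. With either KC library left out, neither gene passed, with adjusted p from 0.145 to 0.534.

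The contractile and intermediate filament genes differed less. Acta2 (chr19:34241090-34255590) encodes smooth muscle alpha-actin, whose stress fibers define a myofibroblast. In MC it was at 16.5, 20.9 and 16.7 CPM, and in control at 10.8, 19.4 and 6.47 CPM. Control 2 lay within the MC range and the other controls below it, and the log2 fold change was 0.56 ± 0.35 (edgeR adjusted p = 0.459). Without control 2 it was 1.06 (adjusted p = 0.0477), and with that Tgfb2, at 1.0 (adjusted p = 0.0363), was the only other member to be called. Acta2 in the libraries labelled HC was at 73.2, 67.4 and 76.5 CPM, against 72.4 and 61.1 CPM in control. These groups overlapped, with a log2 fold change of 0.12 ± 0.11 (edgeR adjusted p = 0.687), in the same libraries in which Postn was lower without overlap. In KMC, Acta2 was at 10.9 and 30.3 CPM, above KC at 7.28 and 8.51 CPM. Its log2 fold change was 1.38 ± 0.50 (edgeR adjusted p = 0.151).

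Des (chr1:75360329-75368579) encodes desmin, an intermediate filament protein long used to identify stellate cells. It was at 7.46 to 14.6 CPM in MC and 4.94 to 8.01 CPM in control, with a log2 fold change of 0.82 ± 0.29 (edgeR adjusted p = 0.271), the smallest p of the members in MC. Des was between 22.1 and 22.6 CPM in the libraries labelled HC, just below both controls at 23.5 and 27.7 CPM (log2 fold change -0.19 ± 0.12, edgeR adjusted p = 0.498). In KMC it was at 6.04 and 13.7 CPM against 5.17 and 5.73 CPM in KC (log2 fold change 0.86 ± 0.45, edgeR adjusted p = 0.262), the smallest difference among the members tested there.

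Tagln (chr9:45929619-45936058) encodes transgelin, an actin-binding protein made with Acta2 in smooth muscle and myofibroblasts. Its counts were very low, 1 to 11 per library in the MC experiment, 47 to 67 in the HC experiment and 2 to 30 in the third, where Acta2 had 107 to 2546. It passed the filter on low counts only in the HC experiment, and its groups overlapped there, at 1.49 to 1.89 CPM against 1.35 and 1.72 CPM (log2 fold change 0.15 ± 0.28, edgeR adjusted p = 0.851). In the annotation, 67.9% of the 1988 exon bases of Tagln are also exon of a gene on the opposite strand, 62.4% in the antisense gene Gm48529 and 5.43% in Pcsk7. Gm48529 had 19 to 42 counts in the HC experiment and 4 to 22 in the third. Whether the counting used strand is not given in the sources used here, so the level of Tagln is uncertain. Of the other members, Tgfb3 shares 12.4% of its exon bases with the opposite strand, Des 5.86%, Tnc 2.26% and Tgfb2 2.14%.

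**Figure D1:**
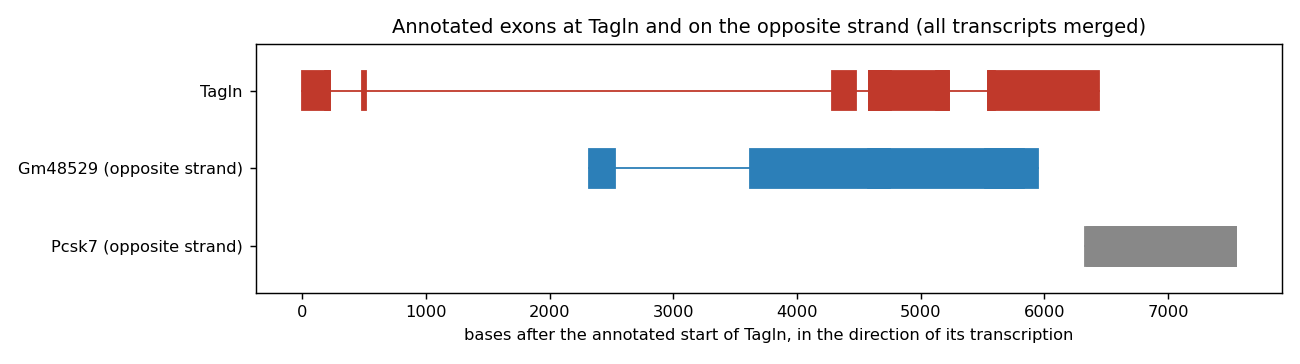
Exons of Tagln and of its neighbors on the opposite strand, merged over the transcripts of the annotation, against the distance in bases from the start of Tagln. Most of the downstream exon sequence of Tagln lies opposite Gm48529, and its last exon ends opposite Pcsk7.

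The receptor and the surface protease of activated stellate cells differed in the same directions as the matricellular genes in the libraries labelled HC and in KMC, and by less. Pdgfrb (chromosome 18) encodes the receptor through which PDGF stimulates stellate cell growth, and it is also a gene of pericytes. It was at 23.4 to 28.7 CPM in MC and 15.8 to 31.4 CPM in control, an overlap with a log2 fold change of 0.15 ± 0.24 (edgeR adjusted p = 0.761). Pdgfrb was at 60.2 to 106 CPM in the libraries labelled HC, below both controls at 112 and 140 CPM (log2 fold change -0.62 ± 0.24, edgeR adjusted p = 0.280). It was higher in KMC without overlap, at 21.1 and 62.8 CPM against 6.2 and 11.8 CPM in KC (log2 fold change 2.22 ± 0.58, edgeR adjusted p = 0.102, DESeq2 adjusted p = 0.00234).

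Fap (chr2:62500943-62574075) encodes fibroblast activation protein, a serine protease of the cell surface found on reactive fibroblasts. In MC and control it overlapped, at 3.80 to 6.90 and 3.95 to 5.33 CPM (log2 fold change 0.15 ± 0.26, edgeR adjusted p = 0.791). Fap was at 7.44 to 11.3 CPM in the libraries labelled HC, below both controls at 13.9 and 17.1 CPM (log2 fold change -0.69 ± 0.22, edgeR adjusted p = 0.209). KMC had 4.37 and 11.7 CPM of Fap, and KC 1.82 and 2.04 CPM (log2 fold change 2.07 ± 0.54, edgeR adjusted p = 0.103, DESeq2 adjusted p = 0.00868).

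Among the ligands, Tgfb1 (chr7:25687002-25705077) is made by many cells, macrophages among them. In MC it was at 39.9, 37.9 and 50.5 CPM and in control at 33.2, 46.3 and 24.5 CPM, which overlapped (log2 fold change 0.30 ± 0.23, edgeR adjusted p = 0.528). The libraries labelled HC were at 65.7, 57.7 and 63.4 CPM, and their controls at 113 and 68.9 CPM. The gap to the nearer control was narrow, and the log2 fold change was -0.54 ± 0.20 (edgeR adjusted p = 0.273). Its KMC levels were 20.1 and 62.1 CPM, and both KC libraries lay close together at 10.8 and 10.6 CPM. The log2 fold change was 1.94 ± 0.53 (edgeR adjusted p = 0.107, DESeq2 adjusted p = 0.00637).

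Tgfb2 (chr1:186622792-186705989) was the least abundant ligand per kilobase of exon in every group, from 0.504 CPM per kb in KC to 3.34 CPM per kb in the HC controls by group mean. It was at 2.71 to 6.40 CPM over the MC experiment, 13.9 to 14.9 CPM in the libraries labelled HC against 17 and 21.7 CPM in their controls, and 6.24 and 9.94 CPM in KMC against 2.31 and 3.52 CPM in KC. Tgfb3 (chr12:86056745-86079041) was at 5.22 to 11.6 CPM over the MC experiment, and at 122 to 229 CPM in the libraries labelled HC against 172 and 218 CPM in control, where it was the 1 ligand whose groups overlapped. In KMC it was at 23.6 and 36.4 CPM against 8.79 and 11.9 CPM in KC, with the smallest SE of any member there (log2 fold change 1.54 ± 0.37, edgeR adjusted p = 0.0905, DESeq2 adjusted p = 0.0101). For Tgfb2 the log2 fold change was 1.46 ± 0.43 (edgeR adjusted p = 0.117, DESeq2 adjusted p = 0.0424).

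**Figure D2:**
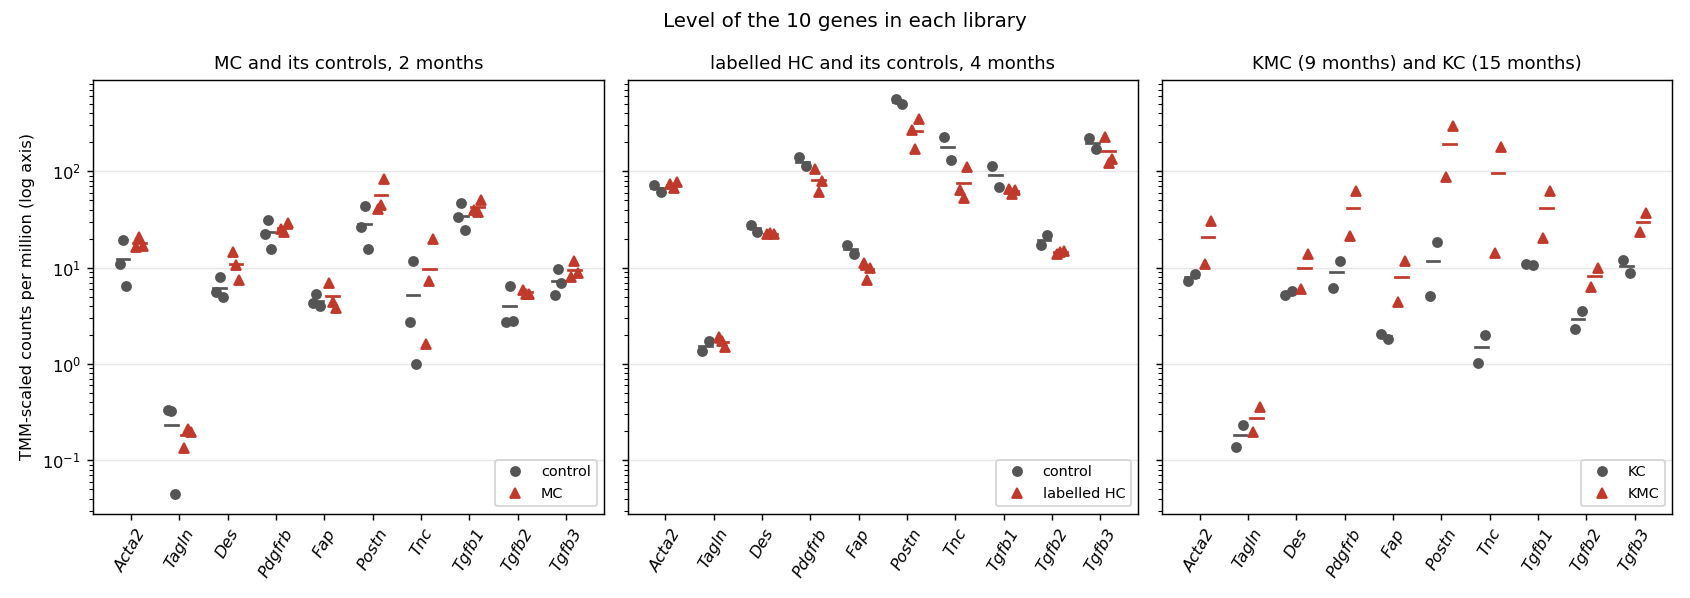
TMM-scaled CPM of the 10 genes on a log axis, in the libraries of the MC experiment, the HC experiment and the third experiment. Each symbol is 1 library (pool of 3 mice), grey circles are controls or KC, red triangles are MC, labelled HC or KMC, and short lines are group means. Postn and Tnc are separated most between KMC and KC.

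Counted without a model, the groups of 0 of the 9 members tested in MC did not overlap (10.9% of all genes tested were higher without overlap and 9.89% lower). Among the libraries labelled HC, 7 of 10 members were lower than both controls (16.1% of all genes) and 0 were higher (17.5%). The 3 others were Acta2, Tagln and Tgfb3. In KMC all 9 members tested were above both KC libraries, as were 34.4% of all genes, while 30.9% were below. Scaling by total counts without acinar genes left these 3 counts at 0, 7 and 9, beside 10.4% of all genes higher and 7.58% lower without overlap in MC, 19.7% lower in the libraries labelled HC and 51.4% higher in KMC.

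**Figure D3:**
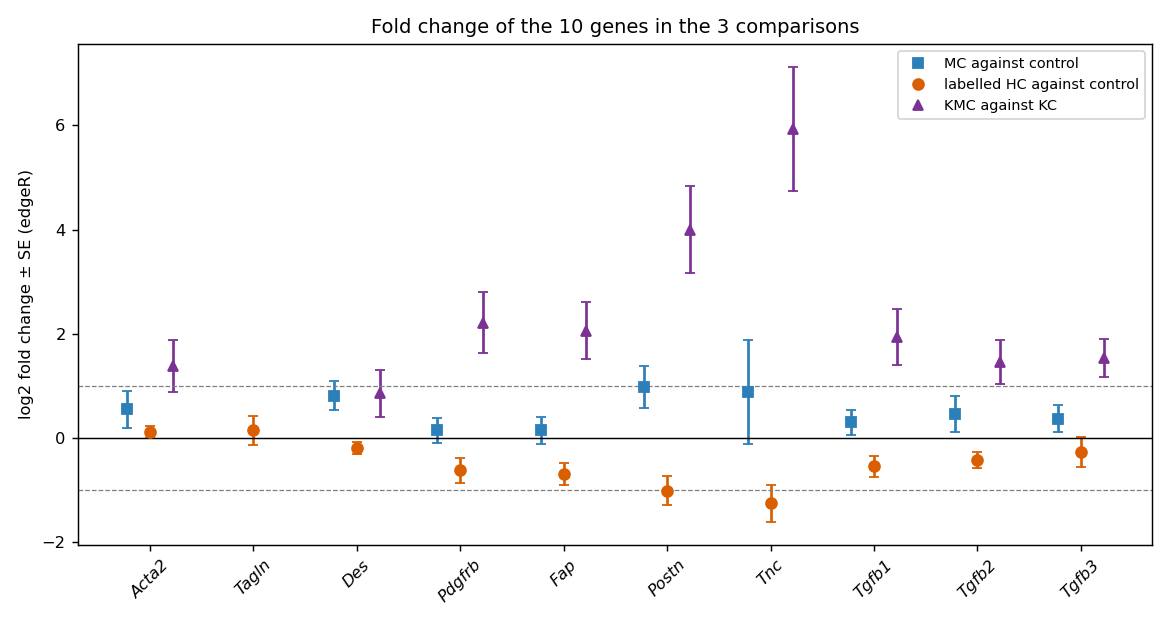
Log2 fold change of each gene from edgeR with its standard error, in the 3 comparisons. Dashed lines mark a log2 fold change of 1 and -1. The KMC values reach 5.94 for Tnc, the MC values lie between 0.15 and 0.98, and those of the libraries labelled HC lie below 0 except for Acta2 and Tagln.

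Per kilobase of exon, where levels of different genes can be set side by side, Acta2 and Tgfb1 led in the MC controls at 5.56 ± 3.0 and 6.87 ± 2.2 CPM per kb (SD, n = 3), and their order lies within the spread. Pdgfrb followed at 4.23 ± 1.43 and Postn at 3.27 ± 1.62 CPM per kb, also within each other's spread. In the HC controls the order was led by Postn at 60.3 ± 4.89 and Tgfb3 at 57.7 ± 9.72 CPM per kb (SD, n = 2), which do not differ beyond their spread, ahead of Acta2 at 30.4 ± 3.65 CPM per kb. In the libraries labelled HC, Postn was at 30.0 ± 9.93, Acta2 at 33.0 ± 2.10 and Tgfb3 at 47.9 ± 17.2 CPM per kb (SD, n = 3), so that Postn and Acta2 were level. In KC, Acta2 was at 3.60 ± 0.40 and Tgfb3 at 3.06 ± 0.65 CPM per kb, and Tnc was at 0.195 ± 0.090 CPM per kb (SD, n = 2). In KMC, Postn stood first at 21.8 ± 16.5 and Tnc next at 12.3 ± 14.8 CPM per kb (SD, n = 2), an order well within their spread. Levels in the 3 tables came from separate experiments and were not tested against each other.

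The M46 effect and the effect of the libraries labelled HC were compared in a single model with each experiment's own controls. These experiments also differed in age (2 and 4 months), control label (B control and WT), library protocol, and the share of acinar and stomach genes. In addition, Map4k1 went against the label in the libraries labelled HC. The parts of these in the difference between the M46 and labelled HC effects were not tested. The difference between both effects was above 0 for 9 of the 10 members (47.0% of all genes), with a median of 0.83 on the log2 scale, and 4 members had an unadjusted p under 0.05, where 12.3% of all genes did. Without MC control 2 these were 9 members, without HC control 1 they were 1, and without MC control 1, MC control 3, HC 2 or HC 3 they were 2. By edgeR 0 members were called (2.18% of 14884 genes). Postn came closest, with a difference of 1.98 ± 0.56 (edgeR adjusted p = 0.0815, range over alternatives that leave out a library 0.0163 to 0.251), and DESeq2 called Postn alone among the members (adjusted p = 0.0103, 6.75% of all genes called). Des followed with a difference of 1.0 ± 0.35 (edgeR adjusted p = 0.140). The KMC effect was larger than the MC effect for 9 of 10 members (48.9% of all genes), by a median of 1.35 on the log2 scale over the members, with 6 of 10 members at an unadjusted p under 0.05 (7.56% of all genes). Without KMC 2 this count was 0, without either KC library it was 3, and without MC control 2 it was 4. Both differences count Tagln, which failed the filter on low counts in MC and in KMC on their own. Its values were -0.57 ± 0.67 for the M46 difference and 0.90 ± 1.0 for the KMC difference. The libraries of the MC experiment and those of KMC and KC also differed in age. They differed in tissue too, which the paper describes as cerulein-treated pancreata for MC and as PDAC for KMC and KC. The parts of age and tissue in the difference between the KMC and MC effects were not tested. For the difference between the KMC and MC effects edgeR called 0 members and 0 of 14464 genes (0.0%), and DESeq2 called 0 members (0.512% of all genes). The largest differences were those of Tnc at 4.97 ± 1.85 and Postn at 2.95 ± 0.93, each with an edgeR adjusted p of 0.298, and that of Des was -0.02 ± 0.54, which turned to 1.41 when libraries were scaled by total counts alone and to 0.33 when acinar genes were left out of the totals.

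The members were next set against general fibroblast genes, as counts per 1000 counts of Dcn, Lum, Pdgfra and Dpt, which quiescent and activated fibroblasts share. These ratios were chosen after the data were seen and are given with no test. The genes of the denominator differed unequally in KMC, with log2 fold changes of 2.78 for Lum, 1.56 for Pdgfra, 1.01 for Dcn and 0.52 for Dpt. Overlap on this scale therefore depends on the weight of each in the sum. In KMC, Postn remained apart at 209 and 591 against 29.4 and 82.1 in KC, and Tnc at 33.7 and 358 against 5.88 and 8.96. The ligands, Acta2, Des, Pdgfrb and Fap overlapped on this scale, with Acta2 at 26.1 and 61.5 against 37.9 and 41.9 and Tgfb1 at 48.1 and 126 against 47.2 and 62.3. Tagln was lower, from at most 30 counts. In the libraries labelled HC, 4 members were lower without overlap: Postn at 106 to 172 against 228 and 282, Tnc at 26.5 to 54.8 against 59.8 and 116, Pdgfrb at 37.3 to 43.8 against 51.8 and 70.9, and Fap at 4.61 to 5.02 against 6.40 and 8.68. Acta2 was at 30.3 to 41.8 against 28.2 and 36.8. In MC, Fap was lower, at 12.6 to 20.3 against 21.7 to 26.0, and the other 9 overlapped, Postn at 120 to 346 against 85.8 to 177. Over all genes tested, 2.19% were higher and 33.6% lower without overlap on this scale in MC, with the libraries labelled HC at 9.33% and 10.1% and KMC at 9.67% and 70.2%. As a log2 ratio of group means, the median of all 10 members was -0.15 in MC, -0.41 in the libraries labelled HC and 0.47 in KMC. Without Tagln, which was not tested in MC and KMC, it was -0.08 in MC and 0.67 in KMC.

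**Figure D4:**
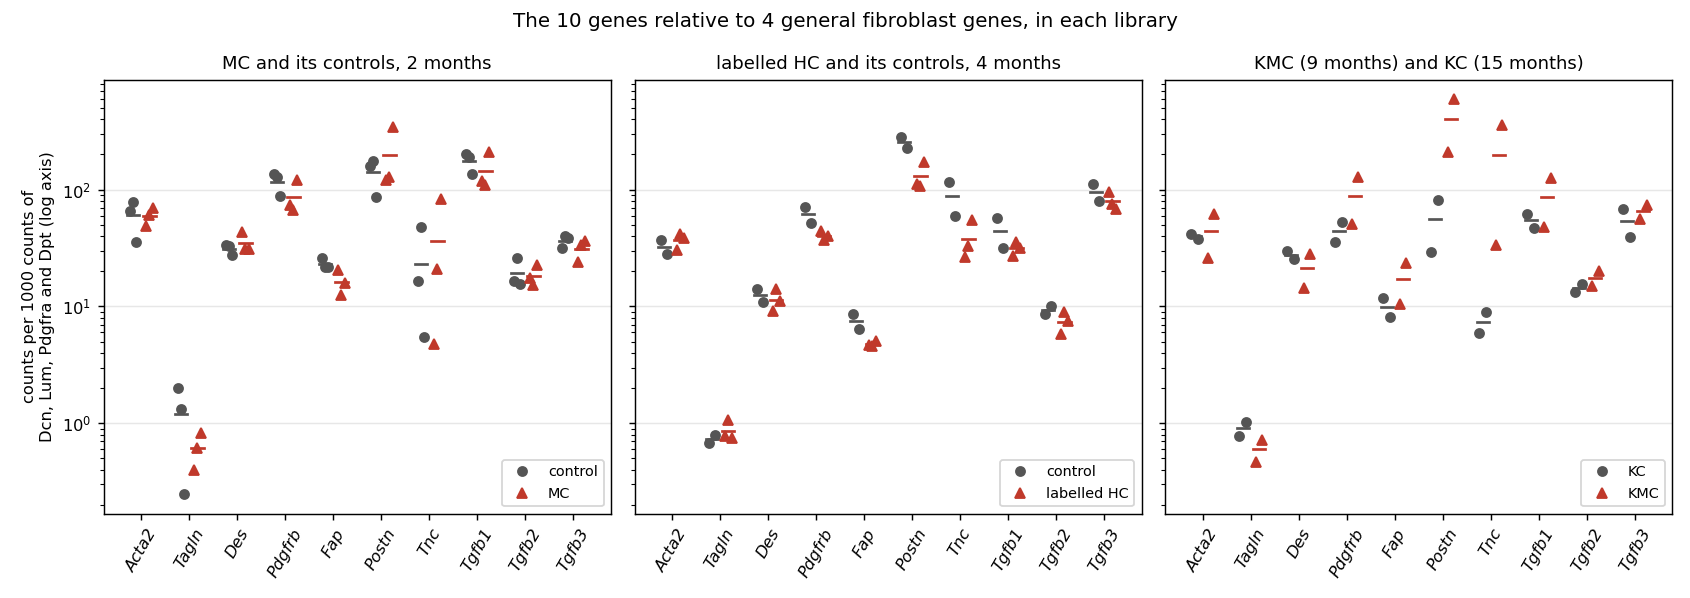
Counts of the 10 genes per 1000 counts of Dcn, Lum, Pdgfra and Dpt, on a log axis, in each library of the 3 experiments (symbols and lines as in the plot of levels by library). Postn and Tnc lie higher in KMC than in KC and lower in the libraries labelled HC than in control, and Acta2 overlaps in all 3 experiments.

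The rest of the TGF-beta pathway was described by 36 genes in 3 lists. Beside their counts, the share of all genes at an unadjusted p under 0.05 was 9.2% higher and 5.46% lower in MC, with the libraries labelled HC at 8.39% and 7.47%, and KMC at 16.1% and 9.48%. Of the 10 receptor and SMAD genes, 6 were higher and 4 lower in MC (median log2 fold change 0.14), 9 lower and 1 higher in the libraries labelled HC (median -0.14), and 8 higher and 2 lower in KMC (median 0.99). At an unadjusted p under 0.05 these were 1 higher and 1 lower in MC, 2 lower in the libraries labelled HC and 6 higher in KMC. An adjusted p of at most 0.05 was reached by 0 of the 36 genes in any of the 3 comparisons by edgeR. Tgfbr2, the receptor that binds ligand first, was at a mean of 81.3 CPM in MC and 47.7 CPM in control, with ranges that overlapped (log2 fold change 0.77 ± 0.28, edgeR adjusted p = 0.286). It was at 402 CPM in the libraries labelled HC against 523 CPM (log2 fold change -0.38 ± 0.14, edgeR adjusted p = 0.257), and at 127 CPM in KMC against 24.5 CPM in KC (log2 fold change 2.37 ± 0.55, edgeR adjusted p = 0.0856). Its partner Tgfbr1 was at 108 CPM in the libraries labelled HC against 149 CPM (log2 fold change -0.46 ± 0.12, edgeR adjusted p = 0.158). Smad4, the common partner of the receptor-activated SMADs, was at 40.5 CPM in MC, below control at 49.6 CPM without overlap (log2 fold change -0.29 ± 0.11, edgeR adjusted p = 0.297). Tgfbr3, the co-receptor betaglycan, was at 20.1 CPM in KMC and 9.12 CPM in KC (log2 fold change 1.13 ± 0.37, edgeR adjusted p = 0.132).

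The list of latency and activation has 12 genes, among them the latent TGF-beta binding protein family and the integrin chains that release the ligand. Of these, 10 were higher in MC (2 at an unadjusted p under 0.05), 9 were lower in the libraries labelled HC (3 at that p, and 1 of the 3 higher), and 10 were higher in KMC (9 at that p), with medians of 0.52, -0.39 and 1.70. Ltbp1, a latent TGF-beta binding protein, was at 9.20 CPM in MC against 5.15 CPM without overlap (log2 fold change 0.84 ± 0.16, edgeR adjusted p = 0.0945). Its relative Ltbp2, which shares the family name and does not bind the latent ligand, was at 12.8 CPM in KMC against 0.683 CPM in KC (log2 fold change 4.17 ± 0.77, edgeR adjusted p = 0.0796). Nrros tethers latent TGF-beta on macrophages and microglia. It was at 23.8 CPM in MC against 13.4 CPM (log2 fold change 0.83 ± 0.36, edgeR adjusted p = 0.340) and at 28.0 CPM in KMC against 4.54 CPM (log2 fold change 2.61 ± 0.53, edgeR adjusted p = 0.0796). The integrin chain genes that activate the latent ligand went apart in the libraries labelled HC. Itgav was at 123 CPM against 172 CPM in control (log2 fold change -0.48 ± 0.10, edgeR adjusted p = 0.0876), whereas Itgb6, the epithelial partner chain, was at 78.3 CPM against 46.9 CPM (log2 fold change 0.74 ± 0.19, edgeR adjusted p = 0.159).

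Of the 14 genes known to be induced by TGF-beta, 12 were higher in MC (0 at an unadjusted p under 0.05), 13 lower in the libraries labelled HC (4 at that p) and 14 higher in KMC (9 at that p), with medians of 0.44, -0.28 and 2.54. Timp1, an inhibitor of matrix metalloproteinases, was at 36.8 CPM in MC against 19.6 CPM with overlap (log2 fold change 0.90 ± 0.46, edgeR adjusted p = 0.388). Igfbp3, a carrier of insulin-like growth factors, was at 274 CPM in the libraries labelled HC against 572 CPM (log2 fold change -1.06 ± 0.24, edgeR adjusted p = 0.118). Tgfbi, a matrix protein named for its induction by TGF-beta and related in sequence to periostin, was at 123 CPM there against 181 CPM (log2 fold change -0.55 ± 0.17, edgeR adjusted p = 0.198). In KMC it was at 69.2 CPM against 10.1 CPM (log2 fold change 2.78 ± 0.56, edgeR adjusted p = 0.0796). Pmepa1, a feedback inhibitor of SMAD signaling, was at 42.6 against 7.43 CPM in KMC (log2 fold change 2.52 ± 0.65, edgeR adjusted p = 0.0987).

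**Figure D5:**
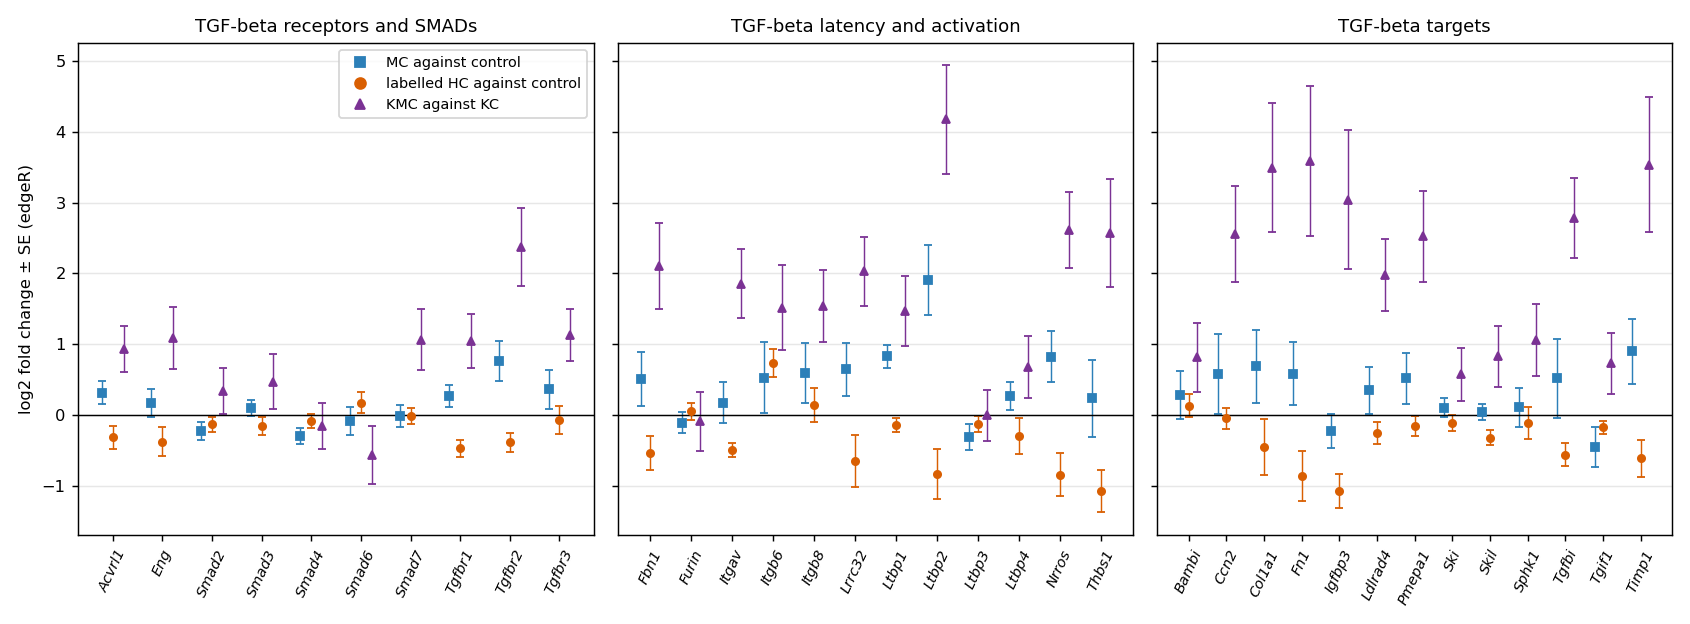
Log2 fold change with its standard error (edgeR) of the receptor and SMAD genes, the latency and activation genes and the target genes, except 1 target gene that is not drawn, in the 3 comparisons. All target genes drawn lie above 0 in KMC, and all of them but Bambi lie below 0 in the libraries labelled HC.

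Beside the members, 18 further stellate and myofibroblast genes were measured, of which 15 were higher in MC (median log2 fold change 0.45), 15 lower in the libraries labelled HC (median -0.38) and 16 of 17 tested higher in KMC (median 1.59). At an unadjusted p under 0.05, 3 were higher and 1 lower in MC (9.2% and 5.46% of all genes), 5 lower and 1 higher in the libraries labelled HC (7.47% and 8.39%), and 12 higher and 0 lower in KMC (16.1% and 9.48%). By edgeR 0 genes had an adjusted p of at most 0.05. Tpm2, a tropomyosin of contractile cells, was higher without overlap in the libraries labelled HC, at 51.4 against 37.0 CPM (log2 fold change 0.48 ± 0.11, edgeR adjusted p = 0.126). Pdgfc, a PDGF ligand, was at 10.9 CPM in KMC and 3.37 CPM in KC (log2 fold change 1.68 ± 0.38, edgeR adjusted p = 0.0825). Pdgfa, another ligand, was at 38.8 CPM in MC and 49.5 CPM in control (log2 fold change -0.35 ± 0.13, edgeR adjusted p = 0.297). Genes of the quiescent state had medians of 0.58 over 9 genes in MC, -0.08 over 10 in the libraries labelled HC and 2.15 over 8 in KMC. Pparg, a nuclear receptor of lipid-storing quiescent stellate cells and of adipocytes, was at 65.6 CPM in the libraries labelled HC against 37.5 CPM (log2 fold change 0.81 ± 0.17, edgeR adjusted p = 0.109). Hgf was at 1.92 CPM in MC against 0.965 CPM, and Ngfr, the low-affinity neurotrophin receptor, at 3.37 CPM in KMC against 0.184 CPM in KC (log2 fold change 4.12 ± 0.69, edgeR adjusted p = 0.0796). That KC level of Ngfr equals the KC mean of Tagln, which came from 2 and 6 counts, so it rests on few counts.

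Macrophage, leukocyte and pericyte markers all differed in the same directions as most members. Most fibroblast, endothelial and smooth muscle markers did so too, and those of other cell types did not in every comparison. All 7 general fibroblast genes were higher in MC and in KMC, with a summed level of 1948 to 2850 CPM in MC against 997 to 2390 CPM, and of 2166 and 6202 CPM in KMC against 464 and 912 CPM in KC. In the libraries labelled HC 5 of 7 were lower, and the sums overlapped at 4669 to 9966 against 9285 and 10556 CPM. All 5 macrophage genes were higher in MC (339 to 541 against 155 to 338 CPM) and in KMC (334 and 803 against 84.7 and 109 CPM) and lower in the libraries labelled HC (544 to 798 against 892 and 1360 CPM). Ptprc was at 38.3 to 52.4 CPM in MC against 8.40 to 19.8 CPM, at 35.1 to 62.6 CPM in the libraries labelled HC against 72.6 and 116 CPM, and at 33.4 and 58.6 CPM in KMC against 3.13 and 10.1 CPM. All 5 pericyte genes followed the same order, with 297 to 399 CPM in the libraries labelled HC against 514 and 591 CPM and 120 and 183 CPM in KMC against 49.4 and 67.2 CPM in KC. In MC they were at 117 to 158 CPM against 67.2 to 134 CPM.

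By the smallest p in each list, the fibroblast gene Dcn had a log2 fold change of 0.74 in MC, and Lum -0.49 in the libraries labelled HC and 2.78 in KMC. Mrc1, a macrophage receptor, had 0.93 and -0.87 in the first 2 comparisons and the macrophage gene Cd68 2.66 in KMC, while the pericyte gene Rgs5 had 0.70 in MC and 1.40 in KMC and Abcc9 -0.82 in the libraries labelled HC. All of these had edgeR adjusted p over 0.05, as had the genes of cell type lists that follow.

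Smooth muscle genes, of cells that also make Acta2, Tagln and Des, overlapped by sum in all 3 experiments, at 27.1 to 40.2 against 19.9 to 29.2 CPM in MC, 59.2 to 83.7 against 69.2 and 82.5 CPM in the libraries labelled HC, and 26.6 and 27.1 against 14.2 and 27.0 CPM in KMC. All 6 were detected in every group. Myh11, smooth muscle myosin, had a log2 fold change of 0.63 in MC, Synpo2 -0.14 in the libraries labelled HC and Smtn 1.15 in KMC. In the acinar direction, all 10 acinar markers were lower in KMC. The longer list of 35 acinar genes took 55.5 and 28.8% of the counts in KMC against 77.6 and 66.5% in KC. In MC all 9 acinar markers listed were lower, and the longer list took 42.5 to 52.8% against 47.2 to 62%. Pnlip, pancreatic lipase, had a log2 fold change of -1.42 in MC, then -0.78 in the libraries labelled HC, and Ptf1a, an acinar transcription factor, -1.86 in KMC. All 4 adipocyte genes were higher in MC, at 47.7 to 125 against 31.1 to 37.6 CPM, with Adipoq at 3.67, and Fabp4 was at -0.11 in the libraries labelled HC and -0.92 in KMC as log2 fold changes. Stomach genes summed to 4351 to 6130 CPM in the libraries labelled HC against 582 and 1480 CPM, with a log2 fold change of 2.43 for Gkn1. Gif had 4.0 in MC and 3.16 in KMC. The stomach genes tested split there, into 1 higher and 1 lower in MC and 2 higher and 2 lower in KMC. Their sums overlapped in KMC, at 6.17 and 27.1 CPM against 9.60 and 15.5 CPM in KC. Skeletal muscle genes stayed at or under 1.78 CPM in sum. The endothelial sums were 104 to 118 against 91.5 to 109 CPM in MC, 187 to 253 against 255 and 337 CPM in the libraries labelled HC, and 87.3 and 131 against 82.8 and 83.3 CPM in KMC, and those of Schwann cells overlapped in all 3. Pecam1 had log2 fold changes of 0.19 in MC, then -0.41 in the libraries labelled HC, and Cdh5 had 1.03 in KMC. Ductal genes were at 2442 to 3196 against 1707 and 1735 CPM in the libraries labelled HC, at 202 to 242 against 219 to 320 CPM in MC and at 74.6 and 188 against 61.0 and 77.2 CPM in KMC. Of the 4 ductal genes, 2 were higher and 2 lower in MC, and all 4 were higher in the libraries labelled HC and in KMC. Krt19 had log2 fold changes of -0.47 in MC, then 0.96 in the libraries labelled HC, and Krt7 2.41 in KMC. Mesothelial sums overlapped in all 3, with Lrrn4 at 0.78 in MC, Upk3b at 1.04 in the libraries labelled HC and Wt1 at 1.90 in KMC. The part of these cells in the levels of the members was not tested.

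The genes whose pattern over the 15 libraries was closest to Acta2, by the root mean square difference of log2 CPM centred within each experiment over 13646 genes, were Wtip, Vim and Gpx7, at 0.171, 0.174 and 0.180, where the median gene was at 0.618 and the spread of Acta2 itself was 0.557. For Postn they were Tlr8, Csf2rb2 and Csf2rb, at 0.188, 0.227 and 0.264, against a median of 1.29 and a spread of Postn of 1.28. For Tgfb1 they were Kctd11, Pla2g15 and Cfap43, at 0.126, 0.139 and 0.147, against a median of 0.662 and a spread of 0.607. These are descriptions over libraries that share experiments, depth and composition.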

How the data were processed

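RNA-Seq was performed by the authors on pooled pancreas RNA, and they deposited raw counts per gene, without normalization. Per the labels, processing used bcl2fastq 2.17.14, STAR 2.6.1a, HTSeq 0.6.1 and the build mm10. The labels give the KAPA Stranded mRNA-Seq kit for the libraries labelled HC, KMC, KC and the HC controls, and standard Illumina protocols for MC. A further deposited table holds the authors' own fold changes and p-values of MC against control and was not used. The MC table lists 15175 genes, and the others list 49585 each.

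Within each experiment, filterByExpr removed genes with low counts, TMM set the library scaling, and the quasi-likelihood test of edgeR 4.0.16 (R 4.3.3) compared groups, with Benjamini-Hochberg adjustment over all genes tested. Differences between effects were tested in 1 model over the 4 groups of 2 experiments. Standard errors were taken from the fold change and the F statistic. DESeq2 1.42.0, other scalings, no filter, a replicate block and leaving out each library were alternatives. Positions and exon lengths come from GENCODE M21 on GRCm38, the build of the files.

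Beside the members, Map4k1 and Ptprc, the 2 genes with the smallest unadjusted p and a mean of at least 1 CPM were named from each TGF-beta list per comparison, and 1 gene from each other list, with the 3 genes closest in pattern to Acta2, Postn and Tgfb1. Some items under this rule are not reported here. Members and lists were chosen with earlier results of these data known. Ddx3y, Xist, Gm48529 and Pcsk7 were named after their values were seen. Nothing says that the pools of a group came from separate experiments, so p-values measure only the spread between these libraries, and floors cover counting error only.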

Additional observations from a re-analysis of the deposited data

How the results depend on the processing

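With 2 or 3 libraries a group, the calls depended on the tool and on single libraries more than the directions did. Beside 0, 104 and 3 genes called in MC, the libraries labelled HC and KMC, and 325 and 0 genes for the difference between the M46 and the labelled HC effects and between the KMC and MC effects, DESeq2 called 453, 468, 2159, 1005 and 74 genes. It called 2 members in the libraries labelled HC, 7 in KMC and 1 for the M46 difference. Total counts alone gave 1 gene in MC, 4715 in KMC (4695 higher and 20 lower, against 1 and 2 with TMM), 98 for the M46 difference, 9 members in KMC and member medians of 3.58 in KMC and 2.76 for the KMC difference, while the median of all genes in KMC moved to 1.47. Leaving acinar genes out of the totals gave 49 genes in the libraries labelled HC, 1244 genes and 7 members in KMC, and an all-gene median of 0.42 there. Des in the difference between the KMC and MC effects reversed under both, to 1.41 and 0.33. With no filter, 395 genes and 2 members were called in the libraries labelled HC and 9 genes in KMC. Relative to the 4 fibroblast genes, an alternative added after the data were seen, the member median without Tagln was -0.076 in MC and 0.67 in KMC, and over all 10 members it was -0.15, -0.41 and 0.47 in MC, the libraries labelled HC and KMC. The cause of these differences was not tested.

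Whether replicate numbers pair the libraries is not stated in the labels and was not settled. Same-numbered libraries correlated in their deviations at 0.0762, 0.313 and -0.347 in MC. The values were 0.214 and 0.202 in the HC experiment and 0.101 in the third, with only 2 numbers shared in each. In a group of 2 libraries the deviations mirror each other, so the correlations of these last 2 experiments can neither show nor exclude pairing. The replicate block gave 339 genes and 2 members in the libraries labelled HC, 2464 genes and 8 members in KMC, 0 genes for the M46 difference, and it left the counts of members called at 0 elsewhere. In the MC experiment, only MC 2 and control 2 correlated best with their own number.

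Leaving out 1 library at a time, where a lone library was assumed to vary like the others, gave 0 to 718 genes, 0 to 2 members and medians of 0.27 to 1.0 in MC, 0 to 379 genes and medians of -0.60 to -0.30 in the libraries labelled HC, and 0 to 2312 genes, 0 to 8 members and medians of 1.2 to 2.23 in KMC. For the M46 difference it gave 0 to 1584 genes and 0 to 4 members, and for the KMC difference 0 to 959 genes and medians of 0.72 to 1.78. MC control 2 and KMC 1 gave the largest counts in their comparisons when left out. Log2 fold changes that changed sign ranged from -0.045 to 0.43 for Pdgfrb, -0.13 to 0.31 for Fap and -0.21 to 2.35 for Tnc in MC, from -0.0024 to 0.24 for Acta2 and -0.014 to 0.33 for Tagln in the libraries labelled HC, and for the KMC difference from -0.083 to 1.32 for Acta2 and -0.66 to 0.45 for Des.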
